A study of Mus musculus with 9 samples.

Results

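The genes described here are 9 genes of the NRF2 antioxidant response, chosen by name from the 21470 genes of the deposited expression table. They are the regulators Nfe2l2 and Keap1, the glutathione supply genes Gclc, Gclm and Slc7a11, the thioredoxin system genes Txnrd1 and Srxn1, and the quinone and haem enzyme genes Nqo1 and Hmox1. All 9 are in the table, and 8 of them were abundant enough to be tested; Slc7a11 was not. The study measured liver RNA of mice in 3 groups of 3 libraries. Sham mice had the control operation, BDL mice had the bile duct ligated, which blocks bile flow and injures the liver, and BDL+LIG mice had the ligation and received ligustilide (LIG), a phthalide of Angelica and Ligusticum roots. LIG is 10 mg/kg in the series design text but the number 20 stands in the titles, and the dose is uncertain. The sources used here do not give strain, sex, age, days after ligation or the schedule of LIG. They also do not state that libraries are from different mice, and if they are not, p-values cover only technical spread between libraries.

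NRF2, the protein of Nfe2l2, is a transcription factor that is normally held in the cytoplasm and sent for degradation by KEAP1. Electrophiles and oxidants modify cysteines of KEAP1, NRF2 then accumulates, pairs with small MAF proteins and binds antioxidant response elements near genes of glutathione and thioredoxin metabolism, NADPH supply, quinone reduction and haem breakdown. The liver relies on this pathway to handle drugs, metabolites and retained bile acids. Much of the control lies in the stability of the NRF2 protein, which RNA levels do not show.

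Ligated livers held more RNA of 6 of the 8 tested genes than sham livers and less of Gclc, while Keap1 did not pass the test. Of the 8 tested genes Hmox1, Nqo1 and Nfe2l2 had the largest differences, with group means 3.70, 3.26 and 2.39 times those of sham. Of the 8 tested genes 6 rose and 1 fell, and 1 did not pass (limma with Benjamini-Hochberg adjustment over 10142 tested genes, threshold 0.05). Of all tested genes 29.7% passed in either direction, 22.9% upward and 6.76% downward. Including Slc7a11, 7 of the 9 genes had every BDL library above every sham library and 1 had every library below, where 33.7% and 11.3% of all tested genes did. The median difference of the 8 genes was 0.88 on the log2(FPKM + 1) scale, against 0.16 over all tested genes. The 9 genes were chosen with earlier results of these data known, so the counts and shares given here describe these genes only. With LIG 0 of the 8 genes passed against BDL, in limma and in voom, and 0 had an unadjusted p under 0.05. Of all tested genes 11.8% passed in limma in that comparison, 9.98% upward and 1.79% downward. In voom 932 of all 10142 tested genes passed, and 3224 had an unadjusted limma p under 0.05. The limma fit of those 2 groups alone called 2 of the 8 genes (Gclc and Nfe2l2), beside 3433 of all tested genes. Every BDL+LIG library was above every BDL library for 3 of the 9 genes, Nfe2l2, Gclc and Txnrd1, and below for 0, where 40.7% and 10.5% of all tested genes were. Against sham, 6 of the 8 genes were higher and 0 lower in BDL+LIG, where 52.6% of all tested genes passed, 43.7% upward and 8.92% downward. With median-of-ratios scaling 5 of the 8 were higher and 2 lower (Gclc and Keap1), beside 2374 higher and 2463 lower of all tested genes instead of 4430 and 905. The same scaling gave 4 risen and 1 fallen in BDL against sham, beside 1539 higher and 1421 lower of all tested genes. For 7 of the 9 genes every BDL+LIG library was above every sham library and for 0 below, where 45.7% and 9.71% of all tested genes were.

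FPKM are mapped fragments scaled to transcript length and library total, so levels of different genes can be set side by side. Changes below are differences of log2(FPKM + 1) ± SE, which understate the change of low genes. The libraries held 34815965 to 40780517 fragments each. Sham library 1 stood apart from the other 2 sham libraries on the second principal component (34.5 against -6.33 and -12.5), and it is set apart below where it carries a value.

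**Figure D1:**
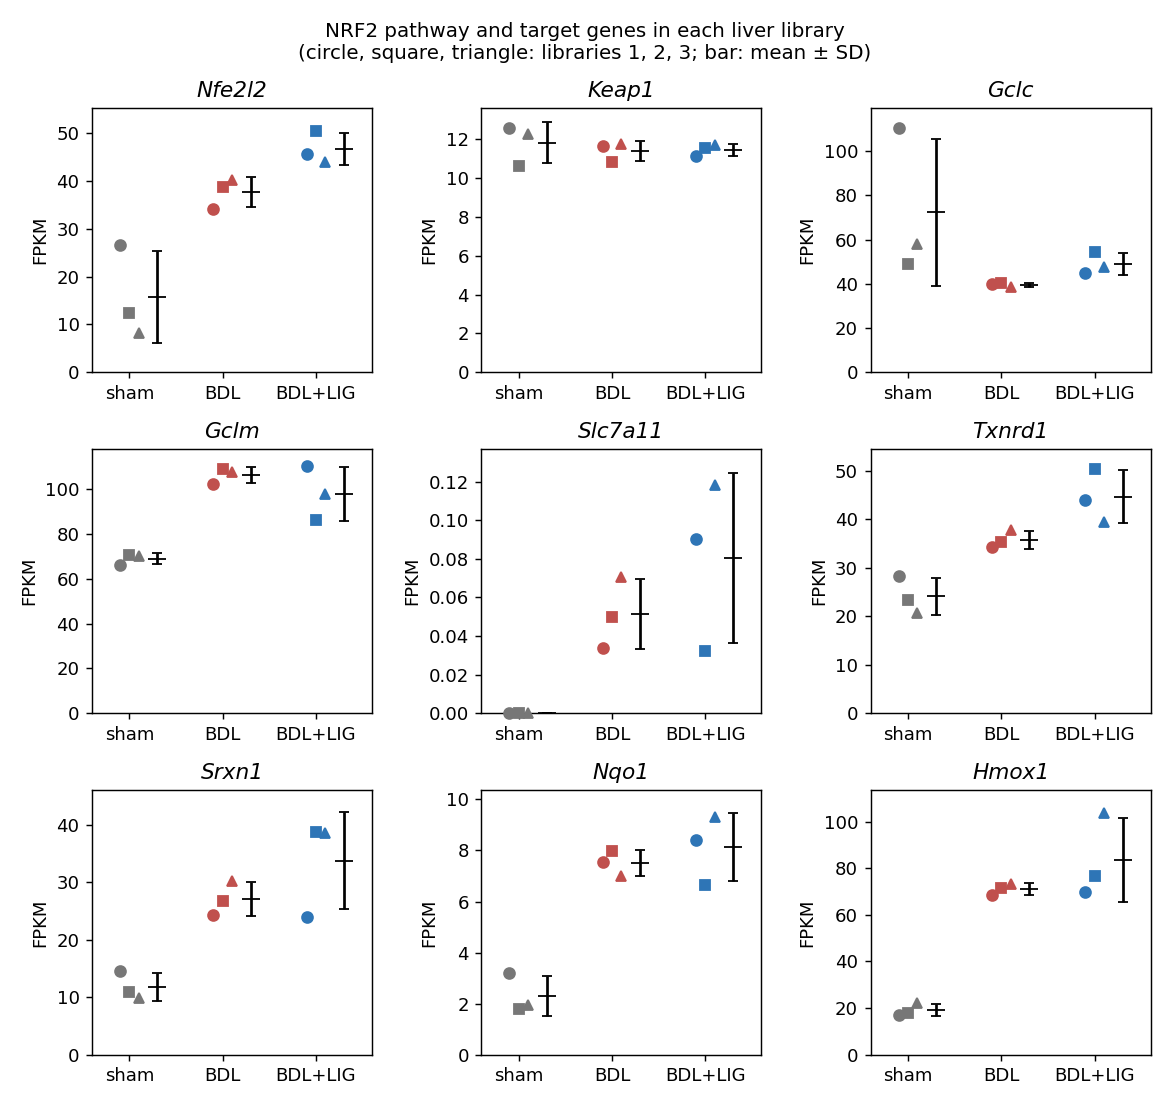
FPKM of the 9 genes in each liver library (y axis, linear, from 0) by group (x axis), with circle, square and triangle for libraries 1, 2 and 3 and a bar for the mean ± SD. Hmox1 lies between 17.2 and 22.3 FPKM in sham and between 68.4 and 104 in ligated livers, Keap1 stays between 10.7 and 12.6 in all 9 libraries, and Gclc is highest in sham library 1.

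The stretches around the start of transcription are shown for the genes that rose together after ligation and hold a match to the core of the antioxidant response element. RefSeq promoters, 250 bases before to 50 bases after the start, matched 7 of the 9 genes by symbol, all but Hmox1 and Gclc. Their build is GRCm38.p6, not the GRCm39 named for the expression table. The letters TGACNNNGC and TGAGNNNGC were searched on both strands, and so was TGACTCA, the site of AP-1 factors, which can overlap TGAGNNNGC on the opposite strand. A match to either 9-letter motif was found in 5 of the 7 genes, Nfe2l2, Gclm, Slc7a11, Txnrd1 and Srxn1, and not in these windows of Nqo1 and Keap1. Counted by window, since Txnrd1 has 3 start sites, it was in 5 of 9. Among all 32851 promoter windows 27.8% hold at least 1 of the 9-letter motifs, 12.4% TGACNNNGC, 17.6% TGAGNNNGC and 5.2% TGACTCA. Srxn1 has the most matches of these genes: TGAGTCAGC, which begins 45 bases before the start, TGAGTCGGC and TGACCTAGC on the other strand, and TGACTCA at 2 places on that strand, of which 1 overlaps TGAGTCAGC. Capitals mark every matched stretch, printed 5′ to 3′ along the gene's strand, so a match on the other strand appears as its reverse complement.
Srxn1, chr2:152105274-152105573, plus strand: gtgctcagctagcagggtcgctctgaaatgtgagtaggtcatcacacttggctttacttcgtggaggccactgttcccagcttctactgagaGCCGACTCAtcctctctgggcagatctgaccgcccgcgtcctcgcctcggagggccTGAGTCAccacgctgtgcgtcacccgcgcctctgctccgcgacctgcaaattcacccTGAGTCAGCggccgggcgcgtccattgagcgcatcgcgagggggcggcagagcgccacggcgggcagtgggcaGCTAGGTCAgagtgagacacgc
Gclm, chr3:122245307-122245606, plus strand: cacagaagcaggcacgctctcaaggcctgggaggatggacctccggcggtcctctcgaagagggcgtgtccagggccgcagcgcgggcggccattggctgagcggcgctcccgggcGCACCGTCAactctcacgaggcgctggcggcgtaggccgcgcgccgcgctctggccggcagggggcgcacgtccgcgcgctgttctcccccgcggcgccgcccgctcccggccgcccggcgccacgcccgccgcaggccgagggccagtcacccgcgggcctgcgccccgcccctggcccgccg
Txnrd1, the second of 3 start sites, chr10:82858956-82859255, plus strand: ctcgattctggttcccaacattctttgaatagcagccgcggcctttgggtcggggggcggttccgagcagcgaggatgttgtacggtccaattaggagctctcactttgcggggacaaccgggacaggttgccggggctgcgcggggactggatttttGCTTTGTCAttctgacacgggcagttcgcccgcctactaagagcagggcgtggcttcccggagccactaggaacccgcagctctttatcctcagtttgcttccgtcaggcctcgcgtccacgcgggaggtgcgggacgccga
Nfe2l2, chr2:75704614-75704913, minus strand: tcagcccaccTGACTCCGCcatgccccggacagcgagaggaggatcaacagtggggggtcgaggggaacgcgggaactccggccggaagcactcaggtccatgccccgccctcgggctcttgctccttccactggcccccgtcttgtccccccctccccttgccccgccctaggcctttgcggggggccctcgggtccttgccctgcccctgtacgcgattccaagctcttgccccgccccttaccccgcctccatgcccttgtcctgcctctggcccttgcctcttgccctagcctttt
The Gclm match reads TGACGGTGC, that of Txnrd1 TGACAAAGC, both on the other strand, and that of Nfe2l2 TGACTCCGC. A match is a sequence description; no binding was measured here.

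The regulators behaved differently from each other. Nfe2l2 stood at 26.7, 12.4 and 8.20 FPKM in sham libraries 1 to 3, at 34.2, 38.7 and 40.2 after ligation alone and at 45.7, 50.5 and 44.0 with LIG. The 3 groups did not overlap, and the lowest ligated library lay above the highest sham library. Nfe2l2 rose after ligation by 1.36 ± 0.31 (limma adjusted p = 0.00821, n = 3 per group). Without sham library 1 the sham mean was 10.3 ± 2.93 (SD) instead of 15.7 ± 9.70 FPKM and the change 1.80 (adjusted p = 3.92e-05). The difference between BDL+LIG and BDL, 0.30 ± 0.31 with a 95% interval of -0.38 to 0.99, did not pass (adjusted p = 0.522). It passed in the limma fit of those 2 groups alone (adjusted p = 0.0416), in which 3433 of all tested genes passed instead of 1194. BDL+LIG was 1.66 ± 0.31 above sham (adjusted p = 0.00141).

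Keap1, which encodes the adaptor that hands NRF2 to a CUL3 ubiquitin ligase, had the narrowest range. Its level was 12.6, 10.7 and 12.3 FPKM in sham livers, 11.6, 10.8 and 11.8 after ligation alone and 11.1, 11.6 and 11.7 with LIG. The groups overlapped throughout. The BDL difference from sham was -0.05 ± 0.11 with a 95% interval of -0.29 to 0.20 (limma adjusted p = 0.785), and its sign turned in TPM (0.04). It was lower in BDL+LIG than in sham with median-of-ratios scaling, quantile normalization and voom, by adjusted p of 0.006 to 0.014, but not as deposited (-0.04 ± 0.11, adjusted p = 0.782) or in TPM (0.19). The ratio of Nfe2l2 to Keap1 RNA within a library was 2.12, 1.16 and 0.669 in sham livers, 2.94, 3.57 and 3.42 after ligation alone and 4.10, 4.37 and 3.76 with LIG. These groups do not overlap, and each pair of groups gives p = 0.1 in a two-sided exact permutation test, the smallest that 3 against 3 allows.

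**Figure D2:**
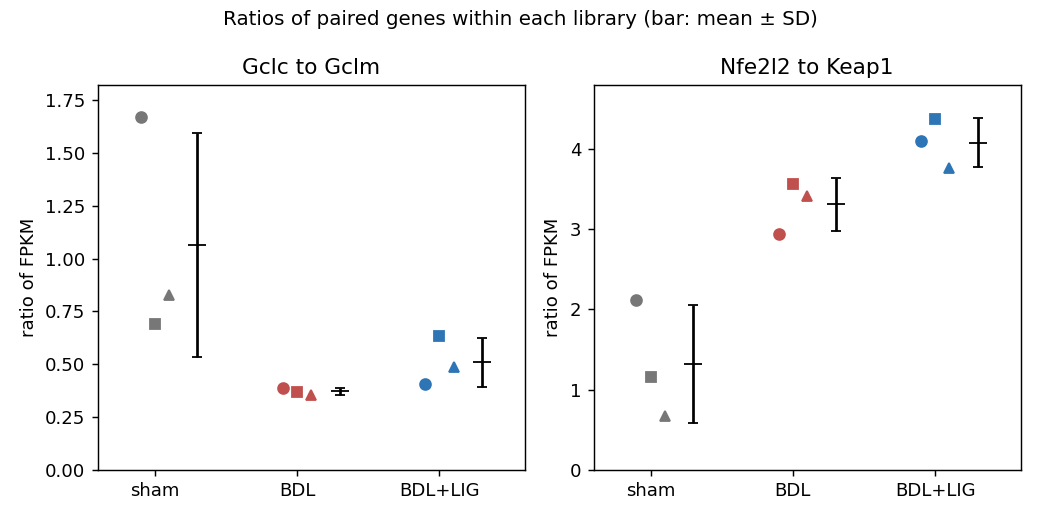
Ratio of the FPKM of 2 genes within each library (y axis, linear, from 0) by group (x axis), with circle, square and triangle for libraries 1, 2 and 3 and a bar for the mean ± SD. The Gclc to Gclm ratio falls from 0.692 or more in sham to 0.389 or less in BDL, and the Nfe2l2 to Keap1 ratio is 2.12 or less in sham and at least 2.94 in every ligated liver.

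Genes of glutathione supply moved apart. Gclc encodes the catalytic and Gclm the modifier subunit of glutamate-cysteine ligase, the first and rate-limiting enzyme of glutathione synthesis. Gclc stood at 110.5, 48.9 and 57.9 FPKM in sham livers, at 39.7, 40.3 and 38.4 after ligation alone and at 44.7, 54.6 and 47.4 with LIG. Every BDL library lay below every sham library, and sham library 1 was far above the other sham libraries. Gclc fell after ligation by 0.77 on the log2 scale (SE 0.24, limma adjusted p = 0.0377). This call is not firm: without sham library 1 the change was -0.42 (adjusted p = 0.0178), and the call was lost in 8 of 21 alternatives, among them the fit of the 2 groups alone (adjusted p = 0.0738), TPM (0.0841) and the fit without any 1 of the BDL libraries (0.0868 to 0.109). In BDL+LIG it was 0.30 ± 0.24 above BDL (95% interval -0.25 to 0.84, adjusted p = 0.422), with all 3 libraries above those of BDL, and it passed in the fit of those 2 groups alone (adjusted p = 0.0424). Against sham, BDL+LIG was at -0.47 ± 0.24 (adjusted p = 0.129), and it was lower past the threshold with median-of-ratios scaling (-0.94, adjusted p = 0.00367), in voom (-0.93, adjusted p = 0.0037) and without sham library 2 (-0.70, adjusted p = 0.0356).

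Gclm stood at 66.0, 70.7 and 70.0 FPKM in sham livers, at 102, 109 and 108 after ligation alone and at 110.1, 86.0 and 97.6 with LIG. All ligated libraries were above all sham libraries, and BDL overlapped BDL+LIG. Gclm rose by 0.62 ± 0.11 after ligation (limma adjusted p = 0.00277), and this call was lost with median-of-ratios scaling (0.36, adjusted p = 0.119) and in voom (0.39, adjusted p = 0.0877). The BDL+LIG difference from BDL was -0.12 ± 0.11 (95% interval -0.38 to 0.13, adjusted p = 0.481). Against sham it was 0.49 ± 0.11 (adjusted p = 0.0048), which was lost with median-of-ratios scaling (0.02, adjusted p = 0.934) and in voom (0.05, adjusted p = 0.831). The ratio of Gclc to Gclm within a library does not depend on library scaling. It was 1.67, 0.692 and 0.827 in sham livers, 0.389, 0.370 and 0.356 after ligation alone and 0.406, 0.635 and 0.486 with LIG. BDL lay wholly below sham, without sham library 1 as well, and wholly below BDL+LIG, each with p = 0.1 in a two-sided exact permutation test.

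Slc7a11 encodes the light chain of the cystine importer xCT, which supplies cysteine for glutathione. It is listed at 0 in all 3 sham libraries and at 0.0340, 0.0498 and 0.0704 FPKM after ligation alone and 0.0905, 0.0324 and 0.118 with LIG. Whole fragments recovered from the deposited values were 0 in each sham library, 13, 19 and 23 after ligation alone and 34, 12 and 44 with LIG. So it was detected in every ligated library and in no sham library, at a level far below that of the other 8 genes. A floor of 3 fragments over the 106598497 of the sham group is 0.0281 fragments per 1000000. Per mapped fragment, the levels in BDL and BDL+LIG were 16.8 and 26.9 times that floor. These are ratios of estimates and not lower bounds, since the 95% Poisson upper limit of sham was 0.0346 per 1000000. The level in BDL was 0.473 fragments per 1000000 mapped fragments (95% Poisson interval 0.356 to 0.616) and in BDL+LIG 0.756 (0.608 to 0.929), intervals that cover counting error only. The libraries of these groups overlapped, with the lowest value in BDL+LIG library 2. In limma with no filter on low values Slc7a11 did not pass in BDL against sham (adjusted p = 0.15) or BDL+LIG against BDL (0.505) and passed in BDL+LIG against sham (0.0209). In voom over genes of at least 10 fragments, a setting chosen after these values were seen, the adjusted p were 0.00536, 0.866 and 0.00198 in the same order.

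Both genes of the thioredoxin system rose. Txnrd1 encodes the cytosolic thioredoxin reductase, which uses NADPH to keep thioredoxin reduced. Its level was 28.3, 23.5 and 20.8 FPKM in sham livers, 34.3, 35.3 and 37.9 after ligation alone and 44.0, 50.5 and 39.6 with LIG. The 3 groups were ordered without overlap. It rose by 0.56 ± 0.14 after ligation (limma adjusted p = 0.0119), which was lost with median-of-ratios scaling (0.31, adjusted p = 0.0637) and without BDL library 3 (0.52, adjusted p = 0.0565). With LIG it was 0.30 ± 0.14 higher than in BDL (95% interval -0.00091 to 0.61, adjusted p = 0.158). Against sham the BDL+LIG difference was 0.86 ± 0.14 (adjusted p = 0.000561).

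Srxn1 encodes sulfiredoxin, which restores over-oxidised peroxiredoxins. It stood at 14.6, 10.9 and 9.92 FPKM in sham livers, at 24.3, 26.7 and 30.2 after ligation alone and at 24.0, 38.7 and 38.5 with LIG. Every ligated library exceeded every sham library, while BDL+LIG library 1 lay just below the BDL range and the other 2 above it. Srxn1 rose by 1.14 ± 0.20 after ligation (limma adjusted p = 0.002) and passed in all 21 alternatives at 0.90 to 1.29. The BDL+LIG difference from BDL was 0.28 ± 0.20 (95% interval -0.16 to 0.72, adjusted p = 0.355), and that from sham 1.42 ± 0.20 (adjusted p = 0.00027).

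Nqo1 and Hmox1 both rose after ligation. Nqo1 encodes a quinone reductase that avoids the radical intermediates of quinone cycling. It stood at 3.19, 1.78 and 1.93 FPKM in sham livers, at 7.55, 7.99 and 6.98 after ligation alone and at 8.43, 6.67 and 9.30 with LIG. It was the lowest of the 8 tested genes in every group, on 211 to 1236 fragments a library, and no ligated library came down to the sham range. The call of BDL against sham (1.39 ± 0.18, limma adjusted p = 0.000297) held in all 21 alternatives at 1.14 to 1.71. The BDL+LIG difference from BDL was 0.09 ± 0.18 (95% interval -0.30 to 0.49, adjusted p = 0.746), and its sign turned with median-of-ratios scaling, quantile normalization and voom (-0.10, -0.10 and -0.12).

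Hmox1 encodes haem oxygenase 1, which opens haem to biliverdin, carbon monoxide and iron, and which macrophages that clear red cells express as well as stressed hepatocytes. It stood at 17.2, 18.0 and 22.3 FPKM in sham livers, at 68.4, 71.6 and 73.4 after ligation alone and at 69.6, 76.7 and 104 with LIG. The sham and BDL libraries were close together within each group, and BDL+LIG library 3 stood above all others. The rise of 1.84 ± 0.16 after ligation (limma adjusted p = 2.11e-05) held in all 21 alternatives at 1.60 to 1.95. The BDL+LIG difference from BDL was 0.21 ± 0.16 (95% interval -0.14 to 0.55, adjusted p = 0.388) and turned to -0.01 with median-of-ratios scaling and voom. Against sham, BDL+LIG was higher by 2.05 ± 0.16 for Hmox1 and by 1.48 ± 0.18 for Nqo1 (adjusted p = 8.95e-06 and 0.00011).

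**Figure D3:**
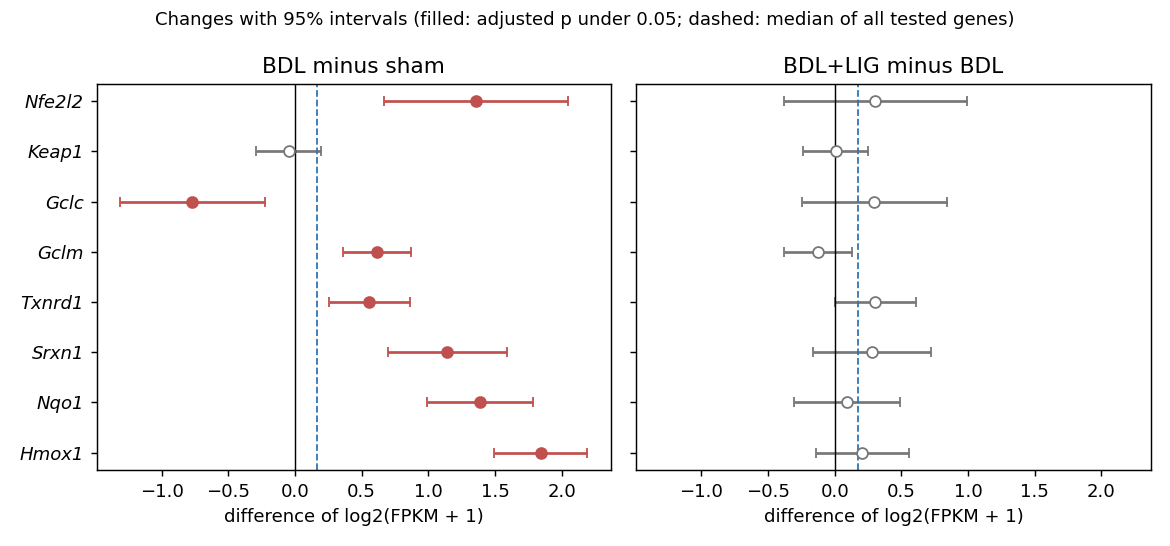
Difference of log2(FPKM + 1) with its 95% interval from limma (x axis) for the 8 tested genes (y axis), BDL minus sham on the left and BDL+LIG minus BDL on the right. Filled points passed at an adjusted p under 0.05; the dashed line is the median of all 10142 tested genes, 0.16 on the left and 0.18 on the right. On the left 6 genes lie to the right of 0, all filled, Gclc lies to the left, filled, and Keap1 is open at -0.05. On the right every interval includes 0.

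In ligated livers the order of levels changed. In sham Gclc and Gclm were highest, with means of 72.4 ± 33.3 and 68.9 ± 2.50 FPKM, and their libraries overlapped. Without sham library 1 Gclc was at 53.4 ± 6.38, below Gclm at 70.3 ± 0.465. Txnrd1 at 24.2 ± 3.80, Hmox1 at 19.2 ± 2.74 and Nfe2l2 at 15.7 ± 9.70 followed, with overlapping libraries between Txnrd1 and Hmox1 and between Nfe2l2 and both. Srxn1 at 11.8 ± 2.47 and Keap1 at 11.8 ± 1.04 were level with each other, above Nqo1 at 2.30 ± 0.777. The libraries of Nfe2l2 overlapped those of Srxn1 and of Keap1 as well. Without sham library 1 Nfe2l2 was not above them, at 10.3 ± 2.93 beside Srxn1 at 10.4 ± 0.709 and Keap1 at 11.5 ± 1.14. In BDL Gclm came first at 106 ± 3.52 and Hmox1 second at 71.2 ± 2.54 FPKM. Gclc at 39.5 ± 0.992, Nfe2l2 at 37.7 ± 3.10 and Txnrd1 at 35.9 ± 1.85 lay close together, and Srxn1 at 27.1 ± 2.98, Keap1 at 11.4 ± 0.501 and Nqo1 at 7.51 ± 0.507 were lower. In BDL+LIG Gclm (97.9 ± 12.0) and Hmox1 (83.4 ± 18.0) overlapped, as did Gclc (48.9 ± 5.12), Nfe2l2 (46.7 ± 3.38) and Txnrd1 (44.7 ± 5.48).

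The liver holds several cell types whose summed marker levels differed between the groups, and in bulk RNA fewer cells of a type and less RNA per cell cannot be told apart. For comparison with the counts that follow, 29.7% of all tested genes passed after ligation and 11.8% with LIG against BDL. All 12 Kupffer cell and macrophage markers rose after ligation, and with LIG 1 of them (Adgre1) was higher than in BDL. Their summed level was 109 to 186 FPKM in sham livers, 502 to 737 after ligation alone and 616 to 1339 with LIG, highest in BDL+LIG library 3, which also had the highest Hmox1. All 6 tested of 8 cholangiocyte markers rose after ligation, and 0 passed with LIG against BDL. They summed to 19.4 to 35.6 FPKM in sham livers, 408 to 603 after ligation alone and 219.5 to 458 with LIG. Spp1 made up most of this sum, and without it the other 7 markers summed to 2.96 to 5.99, 29.9 to 45.9 and 36.4 to 51.5 FPKM, so that the lower sum with LIG was in Spp1. All 4 tested of 6 neutrophil markers rose after ligation and 1 fell with LIG, with sums of 4.21 to 5.72, 42.3 to 46.6 and 15.6 to 39.7 FPKM in the same order of groups. Of 7 markers of stellate cells and myofibroblasts 3 rose after ligation and 3 with LIG, with sums of 4.74 to 15.5, 34.6 to 47.7 and 43.7 to 96.2 FPKM. Of 6 endothelial markers 1 rose after ligation and 6 with LIG, with sums of 19.6 to 23.1, 26.5 to 29.0 and 45.6 to 65.5 FPKM. Of 5 tested red blood cell markers 4 rose and 1 fell after ligation, and 2 fell with LIG against BDL. Lymphocyte markers summed to 1.49 to 3.17, 1.35 to 2.85 and 3.65 to 12.3 FPKM, and the 1 tested of 8 did not pass in either comparison. Hepatocyte markers, which define the labelled tissue, summed to 52186 to 61902, 32418 to 40224 and 40228 to 48235 FPKM, where 1 of 10 rose and 2 fell after ligation and 0 passed with LIG against BDL. Without albumin (Alb) the other 9 summed to 23685 to 31333, 16239 to 19886 and 17034 to 18196 FPKM. No marker of the 7 lists given by their sums was at 0 throughout a group. The part of these cell types in the changes of the 9 genes was not tested.

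Across the 9 libraries the genes with the most similar patterns were named for each tested member, as the 2 highest Pearson correlations of log2(FPKM + 1) among 5152 genes of at least 5 FPKM. These are descriptions over libraries that fall into 3 groups, so a shared difference between groups alone gives a high value. For Hmox1 they were Trem2 (r = 0.994), a receptor of lipid-associated macrophages, and the monocyte attractant gene Ccl2 (0.993). For Nqo1 they were Nfkbia (0.986), which encodes the inhibitor of NF-kappaB, and the lysosomal progranulin gene Grn (0.984). Gclm was closest to Qsox1 (0.986) and to the complement factor B gene Cfb (0.986), and Srxn1 to the lysosomal thioesterase gene Ppt1 (0.996) and to Rab32 (0.987). Nfe2l2 was closest to Gdap2 (0.996) and the vinculin gene Vcl (0.995), and Txnrd1 to Sptbn1 and Parva (0.994 and 0.993). Gclc was closest to Atxn2 and Abcc6 (0.970 and 0.964, but 0.873 and 0.890 without sham library 1), and Keap1, whose range was small, to Vegfb and Oxa1l (0.911 and 0.824).

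The wider pathway was followed in 111 other genes of 9 lists by role, of which 106 were tested. After ligation 34 rose, 11 fell and 61 did not pass, which is 42.5% called against 29.7% of all tested genes, with a median difference of 0.22 against 0.16. With median-of-ratios scaling 19 rose and 20 fell, beside 1539 higher and 1421 lower of all tested genes. The lists were drawn up with earlier results of these data known, so these shares describe the lists only. With LIG, against BDL, 9 rose, 2 fell and 95 did not pass, or 10.4% against 11.8% of all tested genes, with a median of 0.03 against 0.18. With median-of-ratios scaling 1 rose and 3 fell, beside 340 higher and 346 lower of all tested genes. The count of 11 called genes was 0 without any 1 of the BDL libraries, 1 and 2 without BDL+LIG libraries 2 and 3, and 29 and 19 without sham libraries 1 and 3.

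**Figure D4:**
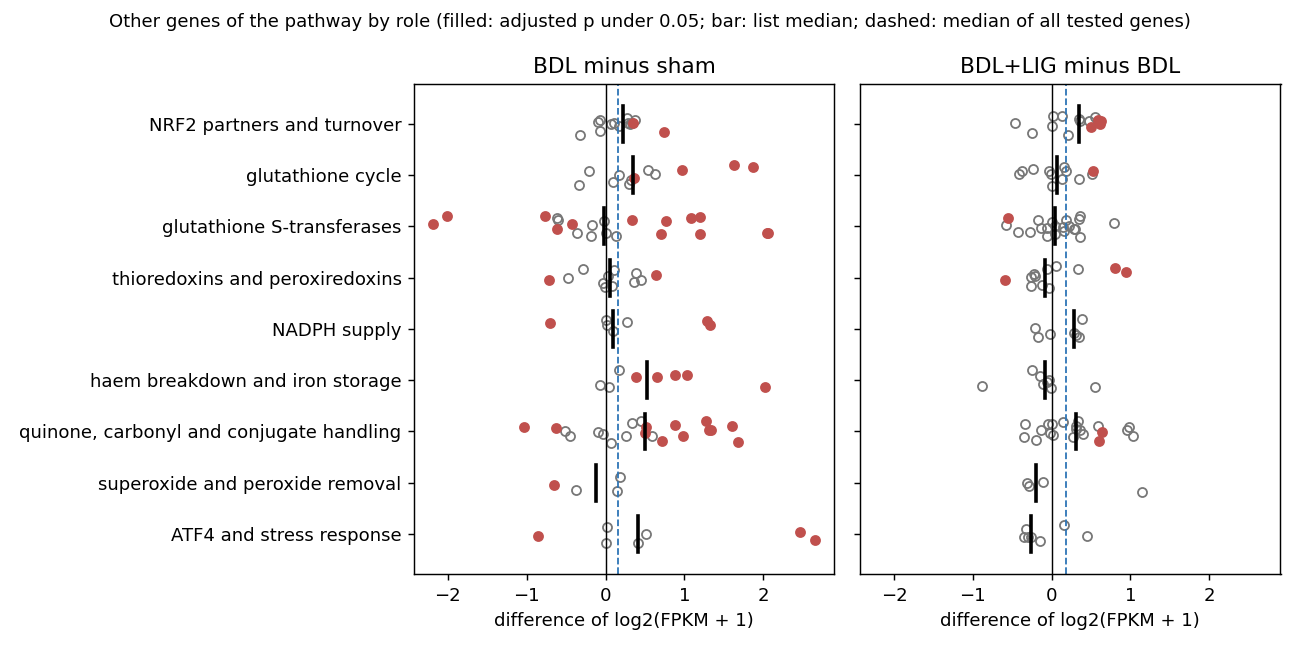
Difference of log2(FPKM + 1) (x axis) of the 106 tested pathway genes outside the 9 described, grouped by role (y axis), BDL minus sham on the left and BDL+LIG minus BDL on the right. Each point is a gene, filled at an adjusted p under 0.05; bars are list medians and the dashed line is the median of all tested genes. Among the glutathione S-transferases on the left 8 rose and 5 fell, the lowest at -2.18, and few points are filled on the right.

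Of 12 tested genes of the glutathione cycle 4 rose after ligation and 0 fell, or 33.3% called against 29.7% of all tested genes. The 4 were 3 glutathione peroxidase genes and Slc3a2. The glutathione peroxidase genes Gpx2 (3.38 ± 0.609 against 0.191 ± 0.147 FPKM, 1.88 ± 0.26, limma adjusted p = 0.000518), Gpx3 (16.0 ± 2.07 against 4.49 ± 0.521, 1.63 ± 0.16, adjusted p = 4.62e-05) and Gpx4 (610.0 ± 25.7 against 321 ± 99.4, 0.97 ± 0.24, adjusted p = 0.0119, lost in 2 of 21 alternatives) rose. Slc3a2, the heavy chain partner of Slc7a11, rose slightly (0.36 ± 0.12, adjusted p = 0.0455), a call lost in 13 of 20 alternatives. The glutathione synthetase gene Gss (0.29 ± 0.13) and the reductase gene Gsr (0.32 ± 0.12) did not pass (adjusted p = 0.125 and 0.0767).

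Of 21 tested glutathione S-transferases, which attach glutathione to substrates, 8 rose and 5 fell, or 61.9% called. Of all tested genes 29.7% were called, 22.9% upward and 6.76% downward. Gstp1, the pi class enzyme that is more abundant in male mouse liver, averaged 578 ± 40.6 FPKM in BDL against 2632 ± 204 in sham (-2.18 ± 0.17, adjusted p = 1.16e-05), and its neighbour Gstp2 fell as well (-2.01 ± 0.15, adjusted p = 1.12e-05). Gstm6 fell (-0.77 ± 0.13, adjusted p = 0.0013), whereas Gstm2 rose (137 ± 3.61 against 59.5 ± 9.53 FPKM, 1.20 ± 0.14, adjusted p = 0.000137). Several Gst genes are near copies of each other, and the split of shared fragments between them is uncertain.

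NADPH, the reductant of both systems, comes in part from the pentose phosphate pathway, whose dehydrogenases rose. Pgd averaged 43.2 ± 0.709 FPKM in BDL against 16.6 ± 0.384 in sham (1.33 ± 0.12, limma adjusted p = 3.64e-05) and G6pdx 5.58 ± 0.853 against 1.71 ± 0.523 (1.28 ± 0.21, adjusted p = 0.00125). The malic enzyme gene Me1 fell (-0.70 ± 0.22, adjusted p = 0.0372), a call lost in 7 of 21 alternatives. The other 4 of 7 genes did not pass (42.9% called against 29.7% of all tested genes). Among 12 thioredoxin and peroxiredoxin genes outside the 9 described, 1 rose and 1 fell (16.7% called). Txnrd2, the mitochondrial thioredoxin reductase, fell while Txnrd1 rose (8.44 ± 0.338 against 14.6 ± 1.33 FPKM, -0.72 ± 0.13, adjusted p = 0.00223). The rise of Sesn2 (0.64 ± 0.22, adjusted p = 0.0487) was lost in 17 of 20 alternatives. Catalase (Cat) fell from 1129 ± 115 to 718 ± 63.1 FPKM (-0.65 ± 0.14, adjusted p = 0.00584), and the 3 superoxide dismutase genes did not pass.

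Of 8 genes of haem breakdown, haem scavenging and iron storage 5 rose and 0 fell (62.5% called against 29.7% of all tested genes). They include the iron exporter gene Slc40a1 (43.6 ± 4.01 against 23.9 ± 7.61 FPKM, 0.88 ± 0.19, adjusted p = 0.00557), the ferritin heavy chain gene Fth1 (0.66 ± 0.15, adjusted p = 0.00965, lost in 3 of 21 alternatives) and the plasma scavenger genes Hp (2.02 ± 0.27) and Hpx (1.03 ± 0.28) (adjusted p = 0.000354 and 0.0196, the latter lost in 6 of 21 alternatives), which are also acute phase genes. The biliverdin reductases Blvra and Blvrb, which act after haem oxygenase, were at 0.17 ± 0.20 and 0.05 ± 0.27 and did not pass (adjusted p = 0.55 and 0.914). Of 21 tested genes of quinone, carbonyl and conjugate handling 10 rose and 2 fell (57.1% called). Ptgr1, a reductase of reactive alkenals (1.67 ± 0.18, adjusted p = 9.24e-05), the carboxylesterase gene Ces1g (1.31 ± 0.15, adjusted p = 0.000164) and Akr1b7 (1.60 ± 0.22, adjusted p = 0.000446) rose, and the aldehyde reductase gene Akr7a5 fell (-0.63 ± 0.09, adjusted p = 0.000777).

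Among 14 partners and turnover genes of NRF2, 2 rose after ligation and 0 fell, or 14.3% called against 29.7% of all tested genes. Fbxw11, a substrate receptor of the ubiquitin ligase that acts on NRF2 without KEAP1, rose by 0.73 ± 0.13 (limma adjusted p = 0.00259) and Sqstm1, whose protein p62 binds KEAP1, by 0.34 ± 0.11 (adjusted p = 0.0372, lost in 8 of 21 alternatives). Bach1, the repressor that competes with NRF2 at Hmox1, Mafg, a small MAF partner, and Cul3 did not pass (-0.09 ± 0.15, -0.07 ± 0.24 and 0.28 ± 0.19; adjusted p = 0.678, 0.854 and 0.312). Of 7 tested ATF4 and stress response genes, some of whose targets overlap with those of NRF2, Atf3 (2.66 ± 0.16) and Ddit4 (2.47 ± 0.19) rose and Trib3 (-0.86 ± 0.14) fell (adjusted p = 2.85e-06, 1.23e-05 and 0.00143), and Atf4 itself was at 0.01 ± 0.14 (adjusted p = 0.963). In this list 42.9% were called, against 29.7% of all tested genes.

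With LIG, 4 of the 14 partner and turnover genes were higher than in BDL and 0 lower, or 28.6% called against 11.8% of all tested genes. They were Bach1 (6.44 ± 0.751 against 3.93 ± 0.291 FPKM, 0.59 ± 0.15, limma adjusted p = 0.0318), the small MAF gene Mafk (0.61 ± 0.12, 0.0158), Fbxw11 (0.62 ± 0.13, 0.0222) and the NRF2 relative Nfe2l1 (0.50 ± 0.12, 0.0269). Mafg and Cul3 did not pass (0.48 ± 0.24 and 0.20 ± 0.19, adjusted p = 0.202 and 0.494). The stress-induced sestrin genes Sesn1 (0.94 ± 0.16, adjusted p = 0.0128) and Sesn2 (0.80 ± 0.22, 0.0432), the oxoprolinase gene Oplah (0.53 ± 0.13, 0.0309), the aldehyde dehydrogenase gene Aldh3a2 (0.64 ± 0.12, 0.0158) and the conjugate exporter gene Abcc3 (0.60 ± 0.16, 0.0406) were higher as well. Thioredoxin (Txn1, -0.60 ± 0.17, adjusted p = 0.0462) and Gstk1 (-0.56 ± 0.11, 0.0166) were lower. In each of these 11 genes the call was lost without any 1 of the BDL libraries, at adjusted p of 0.0523 to 0.143. With median-of-ratios scaling 8 of the 9 higher genes, all but Sesn1, lost the call as well and had smaller differences, from 0.29 for Nfe2l1 to 0.62 for Sesn2, whereas Sesn1, Txn1 and Gstk1 kept it.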

How the data were processed

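Liver RNA of 9 mouse libraries was sequenced. TRIzol extraction and VAHTS Universal V6 library preparation are named per the labels' protocols. Per the submitters' processing notes, tools were fastp, HISAT2 2.1.0 and DESeq2, and the build was GRCm39. The sources used here name neither annotation nor counting program. The authors deposited FPKM for 21470 genes. Columns were tied to samples, and groups and replicate numbers taken, by title.

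The test was limma 3.58.1 (eBayes with trend, R 4.3.3) on log2(FPKM + 1), all 9 libraries in 1 fit, over the 10142 genes that reached 1 FPKM in 3 or more libraries, with Benjamini-Hochberg adjustment and a threshold of 0.05. Low values move in steps of 1 fragment, which gave whole fragments (within 0.02) for 19449 of 19449 genes above 0 in at least 2 libraries. Both steps were tested on simulated data. Alternatives were pseudocounts of 0.1 and 0.5, other filters and scalings, robust eBayes, the 2 compared groups alone, a replicate block, voom on the recovered fragments and each library left out. Removal of a gene length trend, voom for Slc7a11 and marker sums without the most abundant gene were added after the data were seen.

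All 9 members, up to 4 called genes of each other pathway list after ligation and up to 3 with LIG, by p, Bach1, Mafg and Cul3, and the 2 most correlated genes per member were to be named; a few others are named for context after their values were seen (Gss, Gsr, Blvra, Blvrb, Atf4, Spp1, Alb, Adgre1). Marker lists, given by their sums except for red blood cells, covered macrophages, cholangiocytes, hepatocytes, neutrophils, stellate cells, endothelium, red blood cells and lymphocytes. Members and lists were chosen with earlier results of these data known.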

Additional observations from a re-analysis of the deposited data

How the results depend on the processing

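Of the 9 genes, 5 to 7 passed in BDL against sham over the 21 alternatives, and 6 to 7 in BDL+LIG against sham; in BDL+LIG against BDL the number was 0 except for 2 (Gclc and Nfe2l2) in the fit of the 2 groups alone. Hmox1, Nqo1, Srxn1 and Nfe2l2 passed in BDL against sham in all of them. Leaving out 1 library gave 5 to 7, 0 to 0 and 6 to 7 called members, 33 to 56, 0 to 29 and 53 to 73 other pathway genes, and 1894 to 4668, 0 to 3144 and 4505 to 6922 of all genes in BDL against sham, BDL+LIG against BDL and BDL+LIG against sham. All genes called numbered 3008, 1194 and 5335 as reported. With a mean of at least 5 FPKM, which tests fewer genes, they were 1838, 575 and 2765. In BDL+LIG against BDL they were 623 with no filter, 686 with median-of-ratios scaling (340 higher, 346 lower, against 1012 and 182), 1926 in TPM, 3433 with the 2 groups alone and 742 with the replicate block. The other pathway genes called there, 11 as reported, were 7 with no filter, 4 with median-of-ratios scaling, 21 in TPM, 5 with quantile normalization, 34 with the 2 groups alone and 7 with the gene length trend removed. The cause was not tested. The median change of all genes in BDL against sham moved from 0.16 to -0.03 with median-of-ratios scaling, where 52% of calls were rises, and to 0.26 in TPM (82.7%), from 77.2%. Against BDL, BDL+LIG had 50.8% rises after quantile normalization, 49.6% after median-of-ratios scaling, 54.5% in voom and 94.9% in TPM, from 84.8%. Against sham it had 49.1% after median-of-ratios scaling, 52.9% after quantile normalization, 51.9% in voom and 91.3% in TPM, from 83.0%. Changes that turned sign were small and did not pass. With median-of-ratios scaling Keap1, Nqo1 and Hmox1 were at -0.20, -0.10 and -0.013 in BDL+LIG against BDL. With quantile normalization Keap1 and Nqo1 were at -0.15 and -0.10, and in voom Keap1, Nqo1 and Hmox1 at -0.21, -0.12 and -0.012. Gclm was at 0.026 in TPM and Keap1 at -0.11 with the length trend removed. In TPM Keap1 was at 0.036 in BDL and 0.19 in BDL+LIG against sham, and Mafg at 0.0099 in BDL. Leaving out 1 library, Bach1 ranged from -0.19 to 0.029 and Mafg from -0.32 to 0.25 in BDL against sham, both highest without sham library 1, and Keap1 from -0.026 (without BDL library 2) to 0.027 in BDL+LIG against BDL and up to 0.0045 (without sham library 1) in BDL+LIG against sham. Same-numbered libraries did not deviate together throughout. Correlations of their deviations from the group means were -0.126 to 0.285 over 9 pairs, 3 of them over 0.1. Differently numbered pairs had -0.304 to 0.14. The highest values were those of sham with BDL+LIG, at 0.285 for libraries 3 and 0.254 for libraries 1. The replicate number was not treated as a pairing, and the block kept the member counts at 7, 0 and 6. Depth limits Slc7a11 (0 to 44 fragments a library).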

Other observations

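The 3 BDL+LIG libraries had a larger SD than the BDL libraries in 8 of the 9 genes, all but Keap1. The share of all tested genes with a larger SD was not computed. By another measure, the BDL+LIG libraries were also less alike over all tested genes. The mean correlation of a library with its own group was 0.985 to 0.987 in BDL+LIG and 0.994 to 0.996 in BDL. In BDL+LIG library 2 Gclm was lowest of its group (86.0 FPKM) and Gclc, Nfe2l2 and Txnrd1 highest (54.6, 50.5 and 50.5), and in BDL+LIG library 3 Hmox1 and Nqo1 were highest (104 and 9.30). The ratio of Txnrd1 to Srxn1, both of the thioredoxin system, was 1.94, 2.15 and 2.09 in sham livers and 1.41, 1.32 and 1.25 after ligation alone, without overlap (two-sided exact permutation test, p = 0.1, the smallest possible), and 1.83, 1.30 and 1.03 in BDL+LIG.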
